A study of Homo sapiens with 16 samples.

Results

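HCT116 cells carrying an shRNA against CDK8 (shCDK8) were compared with HCT116 cells carrying a non-targeting shRNA (shNT), both after 24 h at 1% oxygen. HCT116 is an established human colorectal carcinoma line. The comparison takes the 4 libraries labelled shCDK8 hypoxia or shNT hypoxia, 2 of each, out of 16 in the series. The other 12 are the same 2 lines at ambient oxygen (21%, normoxia), and cells with an shRNA against TIP60 (shTIP60) or with HIF1A deleted (HIF1A-null, written HIF1A-/- by the submitters) at both oxygen levels. The series text calls the 2 libraries of a group independent biological replicates of poly(A) RNA. Each shRNA was stably expressed and is represented by 1 line, so the effects of the clone, the vector and off-target silencing cannot be told apart from those of losing CDK8. Within a group, library A has the lower library number in the table and library B the higher. Cells grew in McCoy's 5A medium with fetal bovine serum.

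CDK8 is a cyclin-dependent kinase that pairs with cyclin C. With MED12 and MED13 they form the kinase module of Mediator, the complex that carries signals from DNA-bound transcription factors to RNA polymerase II. Hypoxia-inducible factors (HIFs) are dimers of an oxygen-sensitive alpha subunit and ARNT, which bind the core sequence RCGTG near genes for glycolysis, pH control and blood vessel growth when oxygen is low. CDK8 is known as a cofactor through which HIF1A activates part of its targets in these cells.

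Levels are given as CPM, the count of a gene relative to the TMM-scaled total of its library, and are compared between libraries, not between genes. Differences are log2 fold changes of shCDK8 over shNT ± SE, with p from edgeR's quasi-likelihood test adjusted by Benjamini-Hochberg over the 15520 genes tested. The SE is the size of the log2 fold change divided by the square root of that test's F statistic. It was not estimated separately, and for genes with few counts it can be too small. A value written with ± beside a gene is such a log2 fold change with its SE. A gene is said to have risen or fallen in shCDK8 where the adjusted p was at most 0.05. The 4 libraries held 38377063 and 37699048 counts in shCDK8 and 30871326 and 31719784 counts in shNT, and 3 counts corresponded to 0.0810 to 0.103 CPM. Between replicates the log2 CPM differed with an SD across genes of 0.21 in shCDK8 and 0.29 in shNT. Of 9 intestinal epithelial markers, 6 (EPCAM, CDH1, CDX2, KRT8, KRT18 and KRT19) exceeded 1 CPM in all 4 libraries. Of 9 mesenchymal markers VIM, ZEB1 and COL1A1 did, PDGFRA had no count, and the summed level of the 9 was 73.9 and 69.1 CPM in shCDK8, against 97.1 and 83.2 CPM in shNT. None of 4 endothelial and none of 5 immune markers did so, their highest values being 1.33 and 0.864 CPM, and CD3E had no count. Because RNA was extracted from whole cultures, fewer cells of a type and less RNA per cell cannot be told apart.

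The targeted transcript was depleted in both shCDK8 libraries. CDK8 (chromosome 13, 26828241 to 26995119, plus strand, GRCh37, 13 exons in the canonical transcript) had 5.83 and 5.45 CPM in shCDK8, against 27.9 and 28.3 CPM in shNT. The groups did not overlap, and the log2 fold change was -2.32 ± 0.14 (adjusted p = 1.77e-08). It lay between -2.37 and -2.27 in every alternative analysis other than a test against a 1.5-fold threshold, with an adjusted p of at most 5.1e-06. In normoxia the same pair of lines had 5.77 and 6.803 CPM in shCDK8, against 27.3 and 24.8 CPM in shNT.

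No other member of the kinase module passed the test in hypoxia. CDK19, the paralogue that can take the place of CDK8 in the module, had 42.6 and 42.1 CPM in shCDK8, against 38.7 and 49.96 CPM in shNT, with a log2 fold change of -0.07 ± 0.22 (adjusted p = 0.856). CCNC, which encodes cyclin C, MED12, MED12L, MED13 and MED13L had log2 fold changes between -0.17 and 0.04, with adjusted p from 0.423 to 0.969. The exons of CCNC and MED12L overlap those of other tested genes on the other strand, and the strand setting of the counting is not given in the sources used here, so their counts are uncertain. Of 26 core Mediator subunits outside the module, 4 rose (15.4%, close to the 14.4% of all genes) and 0 fell in edgeR's test (0 at an unadjusted p under 0.05, and 0 in DESeq2): MED27 (0.69 ± 0.14), MED4 (0.56 ± 0.12), MED17 (0.44 ± 0.12) and MED31 (0.62 ± 0.17). MED17 was lost without shNT library B or shCDK8 library A (adjusted p of 0.105 and 0.0841), and MED31 without shNT library A or shCDK8 library B (0.128 and 0.139). Exons of both overlap those of another tested gene.

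The difference between the lines reached well beyond CDK8. Of 15520 genes, 4325 were called (27.9%): 2241 rose (14.4%) and 2084 fell (13.4%) in shCDK8. At least 2-fold changes were called for 1447 genes (9.32%), of which 577 rose (3.72%) and 870 fell (5.61%). The middle of the distribution stayed near 0, with a median log2 fold change of 0.02 and quartiles of -0.35 and 0.35. For 10129 genes (65.3%) both libraries of a group lay above both of the other. The count of calls fell to 2209 without shCDK8 library A, 2352 without shNT library B and 2870 without shCDK8 library B, where a lone library is assumed to vary like the other groups.

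Established HIF target genes were lower in shCDK8, to very unequal degrees. Of a panel of 12, 8 fell and 4 did not pass the test, while all 12 had both shCDK8 libraries below both shNT libraries (30.9% of all genes did). CA9 (chromosome 9, 35673925 to 35681156, plus strand, GRCh37), a membrane carbonic anhydrase of pH control, had 6.37 and 7.34 CPM in shCDK8, against 56.02 and 44.2 CPM in shNT. SLC2A3, the high-affinity glucose transporter GLUT3, had 46.1 and 77.1 CPM in shCDK8, against 241 and 266 CPM in shNT. ANKRD37 (chromosome 4, 186317175 to 186321782, plus strand), a small ankyrin repeat protein, had 46.3 and 76.3 CPM in shCDK8, against 181 and 278 CPM in shNT. These 3 were the most reduced of the panel, with log2 fold changes of -2.87 ± 0.24 (adjusted p = 5.55e-07), -2.04 ± 0.22 (adjusted p = 7.05e-06) and -1.91 ± 0.24 (adjusted p = 3.49e-05), in that order. The lower level of CA9 was not particular to hypoxia. In normoxia its log2 fold change was -3.56, and the difference between the oxygen levels (0.69) was not called. SLC2A3 shares near-identical sequence with SLC2A14, and exons of CA9 and ANKRD37 overlap those of ARHGEF39 and UFSP2 on the other strand, so these counts are uncertain.

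The promoters of CA9 and ANKRD37 are shown because they are the called core hypoxia genes with the smallest adjusted p that have an entry in the promoter table used and hold the HIF core. The sequences are RefSeq's for GRCh38.p14, from 250 bases before to 50 after the gene start, 5′ to 3′ on the gene's strand, at chr9:35673678-35673977 for CA9 and chr4:185396591-185396890 for ANKRD37, both plus strand. Capitals mark ACGTG or GCGTG or their reverse complements.
CA9: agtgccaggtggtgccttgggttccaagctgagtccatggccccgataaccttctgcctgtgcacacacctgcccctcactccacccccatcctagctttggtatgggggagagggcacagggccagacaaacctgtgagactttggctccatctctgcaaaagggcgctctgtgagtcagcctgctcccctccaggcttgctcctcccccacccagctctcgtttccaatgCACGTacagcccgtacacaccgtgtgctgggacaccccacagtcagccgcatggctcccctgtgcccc
ANKRD37: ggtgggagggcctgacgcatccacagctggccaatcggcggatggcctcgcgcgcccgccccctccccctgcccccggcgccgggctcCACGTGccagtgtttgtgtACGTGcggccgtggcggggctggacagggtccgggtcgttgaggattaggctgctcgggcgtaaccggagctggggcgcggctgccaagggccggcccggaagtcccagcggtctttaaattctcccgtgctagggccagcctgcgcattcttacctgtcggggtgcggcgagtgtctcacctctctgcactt
CA9 has 1 match, beginning at -18 relative to the gene start, and ANKRD37 has 3, of which 2 overlap in a palindrome. With both strands searched, 42 of 51 core hypoxia genes with a promoter in the table held at least 1 such match (82.4%), as did 19 of the 21 that fell (90.5%), against 61.7% of the promoters of all genes tested and 48.4% of all promoters in the table. A match is a description of these letters and does not show a bound site.

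The other panel genes that fell did so by less. DDIT4, an inhibitor of mTORC1, had 872 and 1115 CPM in shCDK8, against 2092 and 2479 CPM in shNT, a log2 fold change of -1.20 ± 0.20 (adjusted p = 0.000361). P4HA1, a collagen prolyl hydroxylase subunit, had 138 and 173 CPM in shCDK8, against 299 and 366 CPM in shNT (-1.10 ± 0.17, adjusted p = 0.000232). ANGPTL4, a secreted inhibitor of lipoprotein lipase, had 659 and 782 CPM in shCDK8, against 1509 and 1031 CPM in shNT (-0.82 ± 0.19, adjusted p = 0.0051). In all 3 the groups were apart, though the replicates of ANGPTL4 in shNT differed by more than those in shCDK8, and its call was lost without shNT library A or shCDK8 library A (adjusted p of 0.0702 and 0.0711). NDRG1, a stress-induced differentiation gene, had 1329 and 2027 CPM in shCDK8, against 2466 and 2801 CPM in shNT (-0.65 ± 0.24). Its adjusted p of 0.04996 lay just inside the threshold, and it became 0.0632 with library totals in place of TMM factors and 0.0681, 0.214 and 0.392 without shNT library A, shNT library B and shCDK8 library A. ADM, the vasodilator peptide adrenomedullin, had 391 and 489.9 CPM in shCDK8, against 600.4 and 760.2 CPM in shNT (-0.63 ± 0.17, adjusted p = 0.0133), and its call was lost without shNT library B or shCDK8 library A (0.147 and 0.158).

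The remaining 4 panel genes did not pass the test. KDM3A, an oxygen-dependent histone demethylase, had a log2 fold change of -0.45 ± 0.18 (adjusted p = 0.0693). For PDK1, the kinase that restrains pyruvate dehydrogenase, it was -0.30 ± 0.18 (adjusted p = 0.226). The angiogenic factor VEGFA had 244 and 245 CPM in shCDK8, against 289.7 and 283 CPM in shNT, a log2 fold change of -0.23 ± 0.14 (adjusted p = 0.251), and LDHA, lactate dehydrogenase A, had 2352 and 2554 CPM in shCDK8, against 2609 and 3002 CPM in shNT (-0.19 ± 0.15, adjusted p = 0.353). Their libraries did not overlap between the groups, but none passed after adjustment. KDM3A passed in 4 of the alternatives, among them DESeq2 (adjusted p of 0.0438) and the fit without shNT library A (0.0251).

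**Figure D1:**
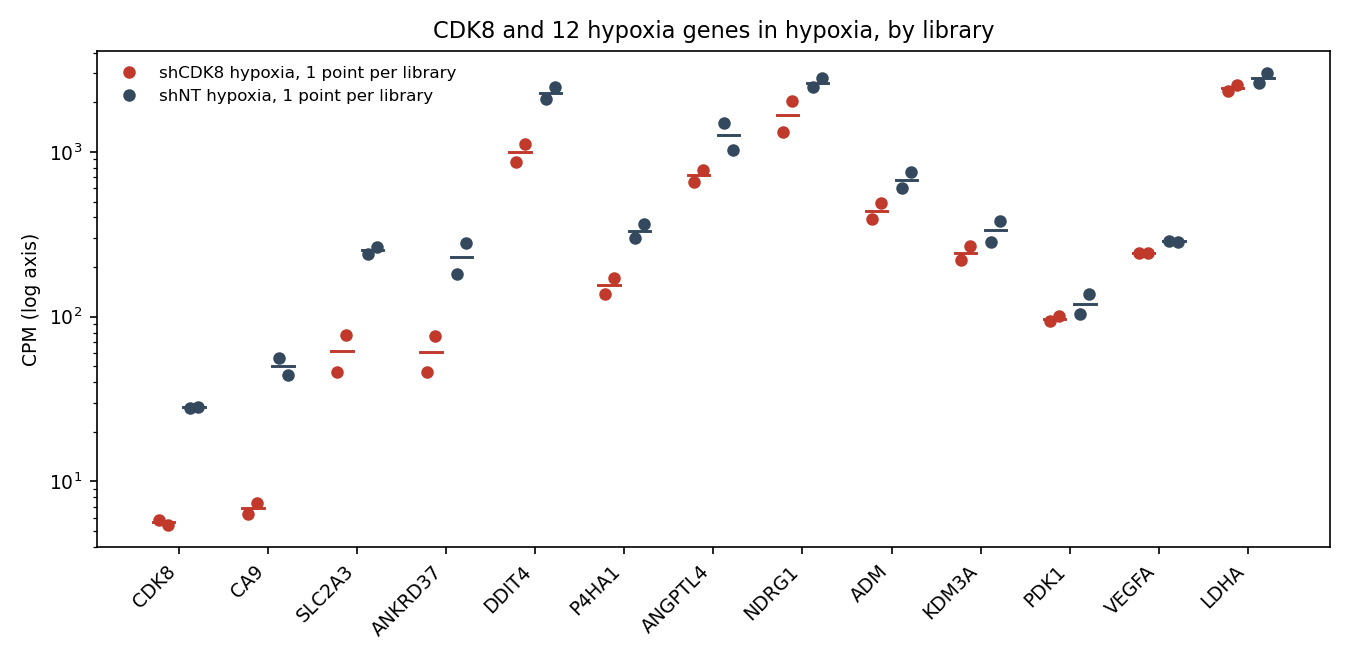
CPM (log axis) of CDK8 and 12 hypoxia genes in the 2 shCDK8 hypoxia libraries (red, left of each pair) and the 2 shNT hypoxia libraries (dark blue, right), with 1 point per library and a bar at the mean of 2. CDK8, CA9, SLC2A3 and ANKRD37 show the widest gaps, and LDHA and VEGFA the narrowest, with log2 fold changes of -0.19 and -0.23.

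Across a wider list of core hypoxia genes nearly all calls were lower in shCDK8. Of 60 tested, 25 fell, 1 rose and 34 did not pass (43.3% called, against 27.9% of all genes). The median log2 fold change was -0.33, against 0.02 over all genes. Among those that fell were STC2, a secreted glycoprotein hormone (194 and 199 CPM in shCDK8, against 471 and 416 CPM in shNT, log2 -1.17 ± 0.21), and the mitophagy receptor BNIP3 (150.5 and 170.0 CPM in shCDK8, against 211 and 271 CPM in shNT, -0.59 ± 0.16), whose call was lost without shNT library B or shCDK8 library A (adjusted p of 0.15 and 0.115). WSB1, a substrate receptor of a ubiquitin ligase, named after its values were seen, was the single member that rose (272 and 308 CPM in shCDK8, against 188 and 191 CPM in shNT, 0.61 ± 0.15), and none rose without shCDK8 library B. The count that fell was 12 without shCDK8 library A, and between 17 and 25 without each of the other 3 libraries. In normoxia 9 of the 60 fell and 6 rose, with a median of -0.09.

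None of 27 genes of glycolysis and lactate handling rose (1 at an unadjusted p under 0.05, 0 in DESeq2). Of the 27, 6 fell (22.2%, against 13.4% of all genes), with a median of -0.19. Besides SLC2A3 these were GPI, glucose-6-phosphate isomerase (2569.7 and 2533 CPM in shCDK8, against 4881 and 4422 CPM in shNT, log2 -0.87 ± 0.17), the aldolases ALDOC (-0.96 ± 0.19) and ALDOA (-0.44 ± 0.15), PFKFB4, which sets the level of the glycolytic activator fructose 2,6-bisphosphate (-0.55 ± 0.13), and the phosphoglycerate kinase PGK1 (-0.58 ± 0.15). ALDOA was lost when any of the 4 libraries was left out, PGK1 without shNT library B or shCDK8 library A and PFKFB4 without shCDK8 library A, so the count was 3 without shCDK8 library A. Exons of PFKFB4 and PGK1 overlap those of UCN2 and ATP7A.

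The HIF subunits and their regulators moved in both directions. EPAS1, which encodes HIF2A, fell (68.7 and 71.5 CPM in shCDK8, against 182 and 199 CPM in shNT, log2 -1.44 ± 0.13, adjusted p = 1.37e-06), and so did CITED2, which competes with HIFs for the coactivators CBP and p300 (50.4 and 48.6 CPM in shCDK8, against 108 and 138 CPM in shNT, -1.31 ± 0.16, adjusted p = 2.3e-05). ARNT, the shared partner subunit, fell by less (49.5 and 56.04 CPM in shCDK8, against 67.8 and 81.3 CPM in shNT, -0.50 ± 0.16, adjusted p = 0.031), a call lost without shNT library B, shCDK8 library A or shCDK8 library B (adjusted p of 0.23, 0.207 and 0.0618). Its paralogue ARNT2 rose (20.6 and 15.01 CPM in shCDK8, against 8.07 and 7.34 CPM in shNT, 1.21 ± 0.17, adjusted p = 0.000101). These were 3 lower and 1 higher of 13 tested (30.8% called, close to the 27.9% of all genes). EPAS1, CITED2 and ARNT2 differed in the same direction in normoxia (-1.06 ± 0.13, -0.78 ± 0.16 and 1.10 ± 0.17).

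To read the hypoxia response as a whole without the libraries compared here, genes were grouped by how hypoxia changed them in shTIP60 cells, whose 4 libraries do not enter the contrast. Of 1153 genes induced at least 2-fold in shTIP60, 410 fell in shCDK8 (35.6%, against 13.4% of all genes) and 53 rose, with a median log2 fold change of -0.42. Of 824 genes repressed at least 2-fold in shTIP60, 394 rose (47.8%, against 14.4%) and 27 fell, with a median of 0.59. In normoxia these medians were -0.08 and 0.09. There 154 of the induced genes fell (13.4%, against 7.27% of all genes) and 75 rose. Of the repressed genes, 59 rose in normoxia (7.16%, against 5.8% of all genes) and 46 fell. Without shCDK8 library A the 2 hypoxia counts were 231 and 197, and without shNT library B the repressed genes that rose numbered 193. The induced genes that rose were 35 without shNT library B, and the repressed genes that fell were 16 without shCDK8 library B. The medians stayed between -0.49 and -0.35, and between 0.50 and 0.67, when any 1 of the 4 libraries was left out.

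The induced genes were also divided by their response in HIF1A-null cells. Of 437 induced genes whose response was called larger in shTIP60 than in HIF1A-null cells, 166 fell (38.0%), with a median of -0.36. Of 333 induced at least 2-fold in both of those lines and not called larger in shTIP60, 127 fell (38.1%), with a median of -0.46. Without shCDK8 library A these counts were 104 and 61, and without shNT library B they were 132 and 72. The difference between the subsets was not tested.

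**Figure D2:**
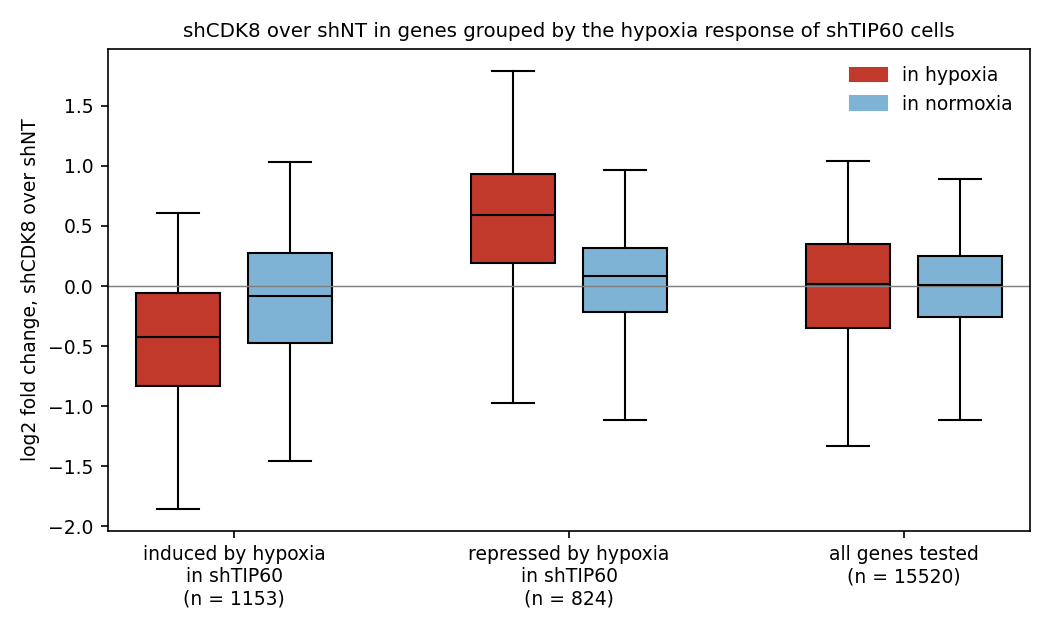
Log2 fold changes of shCDK8 over shNT in hypoxia (red) and in normoxia (light blue), for genes induced (n = 1153) or repressed (n = 824) at least 2-fold by hypoxia in shTIP60 cells and for all genes tested (n = 15520). Boxes span the quartiles with a line at the median and whiskers reach the 5th and 95th percentiles; the medians in hypoxia are -0.42, 0.59 and 0.02.

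Genes of DNA replication that passed the test were all higher in shCDK8. Of 43 tested, 26 rose (60.5%, against 14.4% of all genes) and 0 fell (0 at an unadjusted p under 0.05, 0 in DESeq2). The median log2 fold change was 0.66, and in 35 of the 43 both shCDK8 libraries lay above both shNT libraries (34.4% of all genes did). CCNE2, the S phase cyclin E2, had 17.3 and 13.3 CPM in shCDK8, against 4.17 and 2.68 CPM in shNT, a log2 fold change of 2.16 ± 0.24 (adjusted p = 9.16e-06). Its relative CCNE1 had 34.4 and 34.5 CPM in shCDK8, against 14.3 and 10.9 CPM in shNT (1.45 ± 0.18, adjusted p = 2.88e-05). CLSPN, the replication checkpoint adaptor claspin, had 28.1 and 24.1 CPM in shCDK8, against 11.4 and 4.99 CPM in shNT (1.67 ± 0.28, adjusted p = 0.00044). All 3 were separated between the groups, and the spread was widest in CLSPN, where shNT library A was well above shNT library B. RFC4, a subunit of the clamp loader, MCM10, an initiation factor, and GINS1, a subunit of the replicative helicase, rose by 0.81 ± 0.16, 1.34 ± 0.26 and 0.84 ± 0.17. Exons of CCNE2, RFC4 and GINS1 overlap those of INTS8, EIF4A2 and NINL on the other strand, so their counts are uncertain. The count that rose was 16 without shCDK8 library A, 15 without shNT library B, 18 without shCDK8 library B and 26 without shNT library A, where 1 gene fell.

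The promoters of CLSPN and GINS1 are shown for the letters recognised by E2F factors, which drive S phase genes. They lie at chr1:35769929-35770228 (minus strand) and chr20:25407423-25407722 (plus strand) in GRCh38.p14, taken from RefSeq over the same window, and capitals mark TTTGGCGC, TTTCCCGC, TTTCGCGC or TTTGCCGC or a reverse complement.
CLSPN: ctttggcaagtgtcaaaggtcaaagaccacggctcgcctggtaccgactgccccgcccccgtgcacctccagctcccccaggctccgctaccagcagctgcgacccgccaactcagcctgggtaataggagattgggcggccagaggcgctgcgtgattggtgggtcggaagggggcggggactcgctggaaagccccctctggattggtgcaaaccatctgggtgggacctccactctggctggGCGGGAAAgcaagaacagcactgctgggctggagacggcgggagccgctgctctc
GINS1: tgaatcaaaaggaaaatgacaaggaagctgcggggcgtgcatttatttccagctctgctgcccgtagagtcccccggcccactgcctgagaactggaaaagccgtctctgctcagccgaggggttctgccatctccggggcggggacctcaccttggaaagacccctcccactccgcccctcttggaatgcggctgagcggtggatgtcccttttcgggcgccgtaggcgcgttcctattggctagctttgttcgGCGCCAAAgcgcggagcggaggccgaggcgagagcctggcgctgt
Such a match, on either strand, was in 20 of 37 DNA replication promoters in the table (54.1%) and 12 of 22 of the genes that rose (54.5%), against 5.09% of the promoters of all genes tested and 3.31% of all promoters. As above, a match describes the letters in this window.

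In normoxia none of the 43 replication genes rose in edgeR's test (1 at an unadjusted p under 0.05, 1 in DESeq2) and 1 fell, with a median of -0.09. The median of the difference between the oxygen levels was 0.81 log2 units, against 0.02 over all genes. No member passed edgeR's test of that difference after adjustment, although 32 were higher in hypoxia at an unadjusted p under 0.05 and 10 in DESeq2. Genes of mitosis gave few calls: of 34, 1 rose (BIRC5, 0.56 ± 0.18) and 2 fell (CDC25C, -0.77 ± 0.16, and HMMR, -0.88 ± 0.23). BIRC5 was lost when any of the 4 libraries was left out (adjusted p of 0.0994 to 0.131), and HMMR without shNT library B or shCDK8 library A (0.106 and 0.0847).

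Calls among cytosolic chaperones were also all higher, with 55% of 20 heat shock genes rising, against 14.4% of all genes. Of 20 heat shock genes, 11 rose and 0 fell (0 at an unadjusted p under 0.05, 0 in DESeq2), with a median of 0.56, and 8 to 10 rose when any 1 library was left out. DNAJA1, an HSP40 co-chaperone, had 158 and 149 CPM in shCDK8, against 62.2 and 65.96 CPM in shNT, a log2 fold change of 1.26 ± 0.14 (adjusted p = 7.7e-06). AHSA1, the activator of the HSP90 ATPase, rose by 1.05 ± 0.15, HSPA4, a nucleotide exchange factor for HSP70, by 0.85 ± 0.13, and STIP1, which bridges HSP70 and HSP90, by 0.95 ± 0.15. The inducible HSP70 gene HSPA1B (59.1 and 53.4 CPM in shCDK8, against 26.7 and 18.5 CPM in shNT, 1.32 ± 0.24) is a near-identical copy of HSPA1A, and exons of AHSA1 overlap those of VIPAS39, so both counts are uncertain. HSPH1, the chaperone HSP110, had 104 and 98.9 CPM in shCDK8, against 45.5 and 49.4 CPM in shNT (1.10 ± 0.22). In normoxia 2 of the 20 rose.

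Of 33 ribosome biogenesis factors, 15 rose (45.5%, against 14.4% of all genes) and 0 fell (0 at an unadjusted p under 0.05, 0 in DESeq2). The median was 0.47. NIP7, which acts in 60S subunit maturation, had 53.5 and 50.03 CPM in shCDK8, against 30.9 and 30.6 CPM in shNT (0.75 ± 0.13), BOP1, another 60S factor, had 88.8 and 75.2 CPM in shCDK8, against 40.5 and 29.1 CPM in shNT (1.24 ± 0.25), and POLR1A, the largest subunit of RNA polymerase I, had 111 and 94.1 CPM in shCDK8, against 65.1 and 49.6 CPM in shNT (0.83 ± 0.20). The count was 5 without shCDK8 library A, 5 without shNT library B, 10 without shCDK8 library B and 12 without shNT library A, where 1 gene fell. POLR1A was lost without shNT library B or shCDK8 library A (adjusted p of 0.0759 and 0.06). Exons of NIP7 overlap those of COG8.

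Of 38 genes for cytoplasmic ribosomal proteins, 6 fell (15.8%, close to the 13.4% of all genes) and none rose in edgeR's test (0 at an unadjusted p under 0.05, 0 in DESeq2). The median was -0.26, and it was -0.13 without shNT library B and -0.14 without shCDK8 library A. RPL22 was the most firmly called (117 and 128 CPM in shCDK8, against 184 and 204 CPM in shNT, -0.66 ± 0.13, adjusted p = 0.0016). Among the others, RPS16, RPL30, RPL32 and RPS24 had log2 fold changes between -0.63 and -0.43. The number of ribosomal protein genes that fell was 1 without shCDK8 library A, 1 without shNT library B, 5 without shCDK8 library B and 8 without shNT library A, and RPS16, RPL30, RPL32 and RPS24 each lost the call without shCDK8 library A and without shNT library B. Ribosomal protein genes have many processed copies in the genome, and exons of RPL22 and RPL32 overlap those of other tested genes, so these counts are uncertain.

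**Figure D3:**
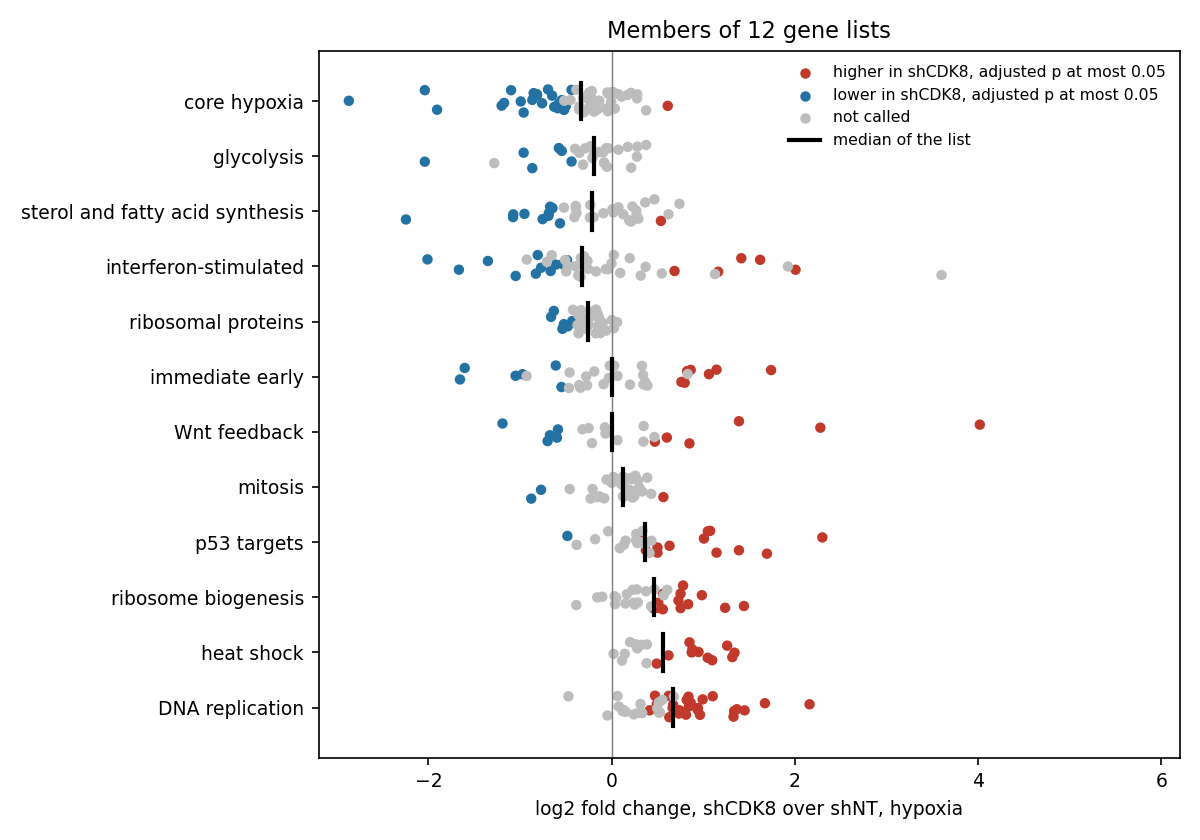
Log2 fold changes of shCDK8 over shNT in hypoxia for the tested members of 12 gene lists, 1 point per gene, red where called higher, blue where called lower and grey where not called, with a black line at the list's median. DNA replication, heat shock and ribosome biogenesis genes lie mostly to the right (medians 0.66, 0.56 and 0.47), and core hypoxia genes mostly to the left (median -0.33).

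Targets of p53, which HCT116 cells retain in wild-type form, gave mostly higher calls at both oxygen levels. In hypoxia 12 of 27 rose and 1 fell (48.1% called, against 27.9% of all genes), with a median of 0.36. In normoxia 17 rose and 1 fell (66.7% called, against 13.1% of all genes), with a median of 0.59. CDKN1A, the CDK inhibitor p21, had 862 and 847 CPM in shCDK8, against 331 and 322 CPM in shNT, a log2 fold change of 1.39 ± 0.12 (adjusted p = 9.86e-07). C12orf5, the glycolytic regulator TIGAR, had 15.7 and 11.5 CPM in shCDK8, against 2.52 and 3.01 CPM in shNT (2.30 ± 0.20, adjusted p = 9.49e-07), and AEN, an apoptosis-enhancing nuclease, had 122 and 118 CPM in shCDK8, against 41.9 and 32.4 CPM in shNT (1.69 ± 0.19, adjusted p = 1.14e-05). The groups were well apart in all 3. PLK2, a stress-responsive polo-like kinase (1.07 ± 0.16), BTG2, an antiproliferative factor (1.14 ± 0.13), and BBC3, the pro-apoptotic protein PUMA (1.01 ± 0.17), rose too. BAX, another pro-apoptotic target, was the single member that fell (60.4 and 66.2 CPM in shCDK8, against 87.2 and 89.8 CPM in shNT, -0.48 ± 0.13), and was named after its values were seen. None fell without shCDK8 library A or shNT library B.

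Immediate early genes, which respond within minutes to growth factors and stress, split. Of 34, 7 rose and 6 fell (38.2% called, against 27.9% of all genes). KLF6 rose (383 and 449.9 CPM in shCDK8, against 213 and 186 CPM in shNT, 1.06 ± 0.16, adjusted p = 0.000233), as did IER5 (0.82 ± 0.15). The MAP kinase phosphatase DUSP1 fell (17.8 and 19.3 CPM in shCDK8, against 50.6 and 66.3 CPM in shNT, -1.66 ± 0.17, adjusted p = 4.63e-06), with the nuclear receptor NR4A2 (15.3 and 17.9 CPM in shCDK8, against 39.6 and 61.4 CPM in shNT, -1.60 ± 0.27, adjusted p = 0.00042) and the mRNA decay factor ZFP36 (-0.97 ± 0.18). The number that rose was 11 without shNT library A, and the number that fell was 3 without shCDK8 library A. In normoxia 8 rose and 0 fell in edgeR's test (5 at an unadjusted p under 0.05, 1 in DESeq2).

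Several of the largest gains were in genes that were near silent in shNT. GRHL3, a transcription factor of epithelial differentiation, had 10.4 and 8.32 CPM in shCDK8, against 0.06899 and 0.132 CPM in shNT, a log2 fold change of 6.48 ± 0.60 (adjusted p = 1.84e-06). TNFSF4, the T cell costimulator OX40 ligand, had 82.8 and 80.9 CPM in shCDK8, against 1.83 and 2.05 CPM in shNT (5.40 ± 0.30, adjusted p = 6.58e-09). COL17A1, a transmembrane collagen of hemidesmosomes, had 78.8 and 49.1 CPM in shCDK8, against 2.14 and 1.19 CPM in shNT (5.27 ± 0.43, adjusted p = 4.45e-07). Each was at or under 2.14 CPM in shNT. Groups without overlap were a condition for choosing these genes. TGFB2, a TGF-beta ligand (9.45 and 10.8 CPM in shCDK8, against 0.172 and 0.364 CPM in shNT, 5.21 ± 0.35), and PMEPA1, a TGF-beta-induced inhibitor of SMAD signalling (39.8 and 33.3 CPM in shCDK8, against 1.41 and 1.32 CPM in shNT, 4.74 ± 0.26), were also among the 12 highest. So were TM4SF18, a member of the transmembrane 4 L6 family (5.48 ± 0.36), ACTL8, an actin-like protein (5.28 ± 0.45), PVRL4, the adhesion molecule nectin-4 (4.58 ± 0.34), CPEB2, which binds cytoplasmic polyadenylation elements (4.36 ± 0.45), TMEM139 (4.13 ± 0.23) and NRP2, a receptor for semaphorins and VEGF family ligands (4.02 ± 0.35).

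BMP4 was the last of the 12. This bone morphogenetic protein (chromosome 14, 54416454 to 54425479, minus strand, GRCh37) had 1239 and 1267 CPM in shCDK8, against 78.4 and 76.3 CPM in shNT, a log2 fold change of 4.02 ± 0.18 (adjusted p = 9.11e-10), and in normoxia 1386 and 1362 CPM in shCDK8, against 102 and 97.2 CPM in shNT.

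The deepest losses left some genes at or near 0. ZNF614, a zinc finger gene on chromosome 19, had no count in either shCDK8 library, against 5.59 and 6.22 CPM in shNT, and was at least 142.7-fold lower when 3 counts over the group are taken as the floor. F10, coagulation factor X, had 0.108 and 0.0847 CPM in shCDK8, against 22.5 and 19.6 CPM in shNT (-7.71 ± 0.35, adjusted p = 9.11e-10). CYP4F11, a fatty acid hydroxylase of the cytochrome P450 family, had 0.594 and 0.677 CPM in shCDK8, against 55.1 and 58.2 CPM in shNT (-6.47 ± 0.22, adjusted p = 6.82e-11). CYTH4, an exchange factor for ARF GTPases, had 0.135 and 0.0564 CPM in shCDK8, against 22.7 and 16.1 CPM in shNT (-7.60 ± 0.35, adjusted p = 9.11e-10). In none of them did the shCDK8 libraries exceed 0.677 CPM.

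Transcription factors were among the genes lost. HNF4A, a regulator of intestinal and hepatic identity, had 0.756 and 0.705 CPM in shCDK8, against 16.4 and 13.6 CPM in shNT (-4.35 ± 0.25, adjusted p = 7.69e-09), NFIB, a nuclear factor I protein, had 0.351 and 0.564 CPM in shCDK8, against 15.9 and 23.5 CPM in shNT (-5.42 ± 0.32, adjusted p = 1.45e-08), and MKX, the homeobox gene Mohawk, had 0.864 and 0.762 CPM in shCDK8, against 17.6 and 12.7 CPM in shNT (-4.21 ± 0.25, adjusted p = 1.41e-08). MKX (27961803 to 28034989) and ARMC4, a ciliary protein gene (-4.11 ± 0.29, 28064115 to 28288008), are neighbours on the minus strand of chromosome 10 (GRCh37). SERPING1, the C1 inhibitor of complement (-6.75 ± 0.56), had values from -11.03 to -5.82 across the alternatives other than the test against 1.5-fold. With it, SLC38A5, a neutral amino acid transporter (-5.40 ± 0.28), SEPP1, selenoprotein P (-5.38 ± 0.57), and ZNF136 (-5.18 ± 0.38) complete the 12 lowest. All 24 of these genes were called under each of the 11 alternatives other than the test against 1.5-fold in which they were tested.

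Levels of 8 of these genes, picked after their values were seen, were also read in the lines not compared here. In the hypoxia libraries of shTIP60 cells, NRP2 had 8.44 and 7.82 CPM, PMEPA1 13.2 and 8.73 CPM and NFIB 0.399 and 0.517 CPM. In the hypoxia libraries of HIF1A-null cells, GRHL3 had 7.77 and 2.86 CPM, HNF4A 1.19 and 0.909 CPM and MKX 2.75 and 1.82 CPM. TNFSF4 had 3.68 and 5.29 CPM in shTIP60 and 0.744 and 0.584 CPM in HIF1A-null. F10 had 30.6 and 29.7 CPM in shTIP60 and 6.17 and 5.42 CPM in HIF1A-null. Except for TNFSF4 and F10, each gene is given in a single one of those lines. These values therefore do not show which levels are particular to shCDK8 or to shNT. Differences among those lines were not tested.

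**Figure D4:**
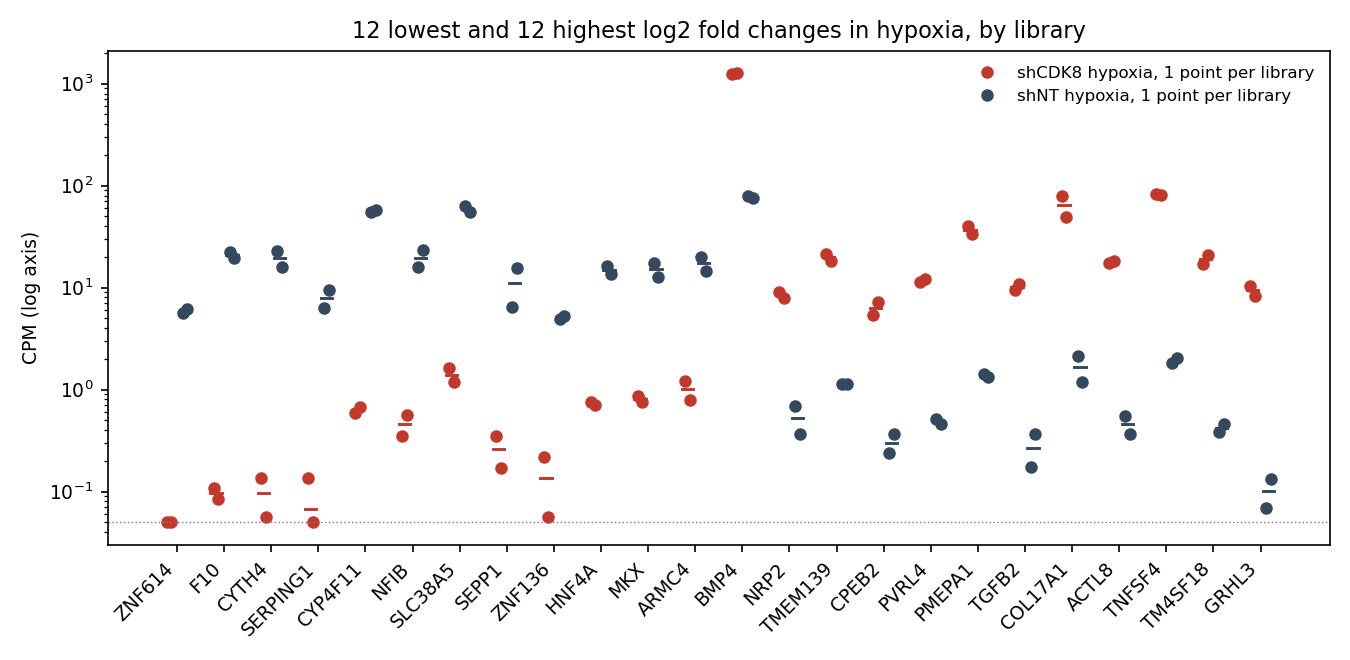
CPM (log axis) of the 12 genes with the lowest and the 12 with the highest log2 fold change among called genes whose higher group reached 5 CPM and whose groups did not overlap, in the 2 shCDK8 hypoxia libraries (red, left of each pair) and the 2 shNT hypoxia libraries (dark blue, right), with a bar at the mean of 2. Values under 0.05 CPM, including 0, are drawn on the dotted line at 0.05, and BMP4 lies at 1239 and 1267 CPM in shCDK8, against 78.4 and 76.3 CPM in shNT.

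Signalling genes were altered without a common direction. Of 29 genes of TGF-beta, BMP and Notch signalling, 9 rose and 6 fell (51.7% called, against 27.9% of all genes). Besides BMP4 and TGFB2, the Notch ligand JAG1 (253 and 249 CPM in shCDK8, against 102 and 94.3 CPM in shNT, 1.36 ± 0.15, adjusted p = 7.17e-06), the Notch feedback gene NRARP (1.04 ± 0.16) and ID3, a BMP-induced inhibitor of basic helix-loop-helix factors (125 and 122 CPM in shCDK8, against 45.4 and 61.4 CPM in shNT, 1.21 ± 0.20, adjusted p = 0.000436), rose. SMAD6, an inhibitory SMAD, fell (13.4 and 9.99 CPM in shCDK8, against 26.7 and 24.8 CPM in shNT, -1.14 ± 0.18, adjusted p = 0.000294). Of 20 Wnt feedback genes, 6 rose and 5 fell (55% called, against 27.9% of all genes). AXIN2, a negative regulator of beta-catenin, rose (39.6 and 36.5 CPM in shCDK8, against 6.66 and 9.03 CPM in shNT, 2.28 ± 0.18, adjusted p = 2.23e-07), as did NKD2 (0.85 ± 0.15), while the ephrin receptors EPHB3 (8.97 and 11.03 CPM in shCDK8, against 22.8 and 22.9 CPM in shNT, -1.19 ± 0.15, adjusted p = 3.17e-05) and EPHB2 (-0.70 ± 0.15) fell. The number of Wnt feedback genes that fell was 2 without shCDK8 library A, 3 without shCDK8 library B and 3 without shNT library B.

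Of 17 angiogenic and vasoactive genes, 5 fell and 3 rose (47.1% called, against 27.9% of all genes). The platelet-derived growth factor genes PDGFA (75.9 and 138 CPM in shCDK8, against 291 and 423 CPM in shNT, -1.74 ± 0.22, adjusted p = 3.17e-05) and PDGFB (52.4 and 60.8 CPM in shCDK8, against 119 and 110.0 CPM in shNT, -1.02 ± 0.17, adjusted p = 0.000481) fell alongside ANGPTL4 and ADM. NRP2 rose, as did FGF2, basic fibroblast growth factor (8.43 and 8.32 CPM in shCDK8, against 2.55 and 2.25 CPM in shNT, 1.80 ± 0.23, adjusted p = 3.66e-05), although exons of FGF2 overlap those of NUDT6. In normoxia PDGFA and PDGFB had log2 fold changes of -0.12 ± 0.22 and -0.22 ± 0.18 and were not called. The number that fell was 3 without shCDK8 library A and 3 without shNT library A. Of 19 NF-kB genes, 5 rose and 3 fell (42.1% called, against 27.9% of all genes). ICAM1, an adhesion molecule for leukocytes, had 3.46 and 3.19 CPM in shCDK8, against 15.6 and 14.3 CPM in shNT (-2.17 ± 0.21, adjusted p = 2.38e-06). The count that rose was 0 without shCDK8 library A, 2 without shNT library A and 3 without either of the other 2 libraries.

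Sterol and fatty acid synthesis genes gave mostly lower calls at both oxygen levels. Of the list 32.4% were called in hypoxia and 44.1% in normoxia, against 27.9% and 13.1% of all genes. In hypoxia 10 of 34 fell and 1 rose, with a median of -0.22 that became -0.01 without shNT library A and -0.09 without shCDK8 library B, and in normoxia 15 fell and 0 rose (0 at an unadjusted p under 0.05, 0 in DESeq2), with a median of -0.50. SREBF2, the master regulator of cholesterol synthesis, had 337 and 322 CPM in shCDK8, against 563 and 489 CPM in shNT (-0.67 ± 0.13, adjusted p = 0.00171), and SCD, stearoyl-CoA desaturase, had 2081 and 1842 CPM in shCDK8, against 3433 and 3184 CPM in shNT (-0.75 ± 0.16, adjusted p = 0.00233). SQLE, squalene epoxidase, fell by 0.69 on the log2 scale. Those that rose were 3 without shNT library A, 2 without shCDK8 library B and 0 without either of the others.

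More interferon-stimulated genes fell than rose in hypoxia: 11 of 42 fell and 5 rose (38.1% called, against 27.9% of all genes). In normoxia 4 fell and 5 rose. The median in hypoxia was -0.32, and it was -0.12 without shCDK8 library B and -0.51 without shCDK8 library A. IFITM1 (5.32 and 6.12 CPM in shCDK8, against 13.6 and 15.6 CPM in shNT, -1.35 ± 0.19, adjusted p = 0.000122), IFITM3 (164 and 148 CPM in shCDK8, against 272 and 373 CPM in shNT, -1.05 ± 0.22, adjusted p = 0.00228), both of which restrict viral entry, and IFIT1, a sensor of viral RNA (-1.67 ± 0.31), were lower. ISG20, an exonuclease (20.96 and 24.5 CPM in shCDK8, against 9.62 and 7.44 CPM in shNT, 1.41 ± 0.20, adjusted p = 0.000117), and OASL (12.2 and 9.45 CPM in shCDK8, against 3.48 and 1.92 CPM in shNT, 2.01 ± 0.31, adjusted p = 0.000232) were higher. The count that fell was 6 without shCDK8 library A, 6 without shCDK8 library B, 5 without shNT library B and 9 without shNT library A.

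Of 24 genes of collagen processing and matrix, 6 fell (25%, against 13.4% of all genes). In that list 0 rose (1 at an unadjusted p under 0.05, 1 in DESeq2). The lysyl oxidases LOXL4 (5.402 and 6.49 CPM in shCDK8, against 23.8 and 22.3 CPM in shNT, -1.96 ± 0.20, adjusted p = 6.26e-06) and LOXL1 (-1.51 ± 0.21), which cross-link collagen, fell, as did the laminin chain gene LAMB3 (-0.98 ± 0.19). In the fit without shNT library A 1 gene of the list rose. Exons of LOXL1 overlap those of LOXL1-AS1.

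Epithelial identity genes changed in both directions, with 45.5% of 22 intestinal epithelial markers called, against 27.9% of all genes. Of 22 intestinal epithelial markers, 5 rose and 5 fell, and those that rose were 3 without shCDK8 library A and 2 without shNT library B. KRT19 fell (2000.0 and 2050.0 CPM in shCDK8, against 5049.9 and 3590.3 CPM in shNT, -1.09 ± 0.16, adjusted p = 0.000159) and KRT18 rose (1878 and 2013 CPM in shCDK8, against 1124 and 935 CPM in shNT, 0.92 ± 0.17, adjusted p = 0.000839), though exons annotated to KRT18 and KRT8 overlap. CDH1, E-cadherin, fell (127 and 116 CPM in shCDK8, against 209 and 202 CPM in shNT, -0.75 ± 0.17, adjusted p = 0.00456), and CEACAM1, a cell adhesion molecule, rose (2.84 ± 0.41). MUC13, a transmembrane mucin, had no count in shCDK8, against 0.828 and 0.7605 CPM in shNT, and was at least 19.2-fold lower. Of 12 mesenchymal markers 4 rose, among them VIM (17.7 and 19.6 CPM in shCDK8, against 11.6 and 9.69 CPM in shNT, 0.81 ± 0.17, adjusted p = 0.00235) and SPARC (2.54 ± 0.42), and 4 fell, among them COL1A1 (-0.69 ± 0.14) and SNAI1 (-0.75 ± 0.21). These calls were 66.7% of the 12, against 27.9% of all genes. SNAI1 was lost without shNT library B or shCDK8 library A (adjusted p of 0.228 and 0.137), and the number that fell was 1 without either of these and 2 without shCDK8 library B. The part of such markers in the other results was not tested.

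The same pair of lines in normoxia, which shares no library with the hypoxia comparison, showed how much of the difference was present without hypoxia. There 2028 genes were called (13.1%), 900 higher (5.8%) and 1128 lower (7.27%), a count of 1289, 1074 and 1268 without shNT normoxia library A, shNT normoxia library B and shCDK8 normoxia library B. Of these, 1527 were also called in hypoxia in the same direction, which is 75.3% of the normoxia calls and 35.3% of the hypoxia calls. Of the 4325 genes called in hypoxia, 3986 (92.2%) had a log2 fold change of the same sign in normoxia. Across all 15520 genes, which are not independent replicates, the 2 log2 fold changes correlated with a Pearson r of 0.72, a description for points that share the 2 lines.

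The test of the difference itself called 6 of 15520 genes (0.0387%), 1 with a higher effect in hypoxia (0.00644%) and 5 with a lower one (0.0322%), with 1695 at an unadjusted p under 0.05 and 225 in DESeq2. DUSP1 had the largest, at -2.23 ± 0.24 (adjusted p = 0.00147): in normoxia it had 13.1 and 10.5 CPM in shCDK8, against 8.01 and 7.83 CPM in shNT, a log2 fold change of 0.57 ± 0.17. TFRC, the transferrin receptor for iron uptake, was the single gene with a more positive effect in hypoxia, with a difference of 1.77 ± 0.22 (adjusted p = 0.00467). It had 311 and 244 CPM in shCDK8, against 153 and 118 CPM in shNT, in hypoxia, and 224 and 191 CPM in shCDK8, against 360.2 and 332 CPM in shNT, in normoxia, so the order of the lines was turned round. HPCAL1, a neuronal calcium sensor family protein, had 163 and 182 CPM in shCDK8, against 450.0 and 422 CPM in shNT, in hypoxia and differed little in normoxia (121 and 119 CPM in shCDK8, against 119 and 122 CPM in shNT), a difference of -1.33 ± 0.18 (adjusted p = 0.00762).

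The call of the difference was lost without shCDK8 hypoxia library A for both TFRC and HPCAL1 (adjusted p of 0.0544 and 0.149), and for HPCAL1 also without shNT normoxia library A (0.106). ANGPTL4, HOXA4 and the TRAIL decoy receptor TNFRSF10D were the others, and each lost that call in at least 6 of the 8 fits that left out 1 library. ANGPTL4 was higher in shCDK8 in normoxia (16.99 and 14.3 CPM, against 8.56 and 8.41 CPM in shNT) and lower in hypoxia, a difference of -1.70 ± 0.28 (adjusted p = 0.0487). TNFRSF10D had the same pattern, with 178 and 245 CPM in shCDK8, against 270.4 and 346 CPM in shNT, in hypoxia and 119.9 and 128 CPM in shCDK8, against 55.3 and 60.9 CPM in shNT, in normoxia (-1.64 ± 0.27, adjusted p = 0.0487), and its fall in hypoxia was lost without shNT library B or shCDK8 library A (adjusted p of 0.309 and 0.349). HOXA4, a homeobox factor, had 3.62 and 3.697 CPM in shCDK8, against 3.79 and 3.703 CPM in shNT, in hypoxia and 5.95 and 4.77 CPM in shCDK8, against 1.23 and 1.38 CPM in shNT, in normoxia (-2.06 ± 0.32, adjusted p = 0.0296), and its exons overlap those of HOXA-AS3. Calls in both oxygen levels with opposite signs were made for 6 genes, namely ANGPTL4, DUSP1, TFRC and TNFRSF10D, and also SOCS2 and SNAR-C4, which were named after their values were seen.

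**Figure D5:**
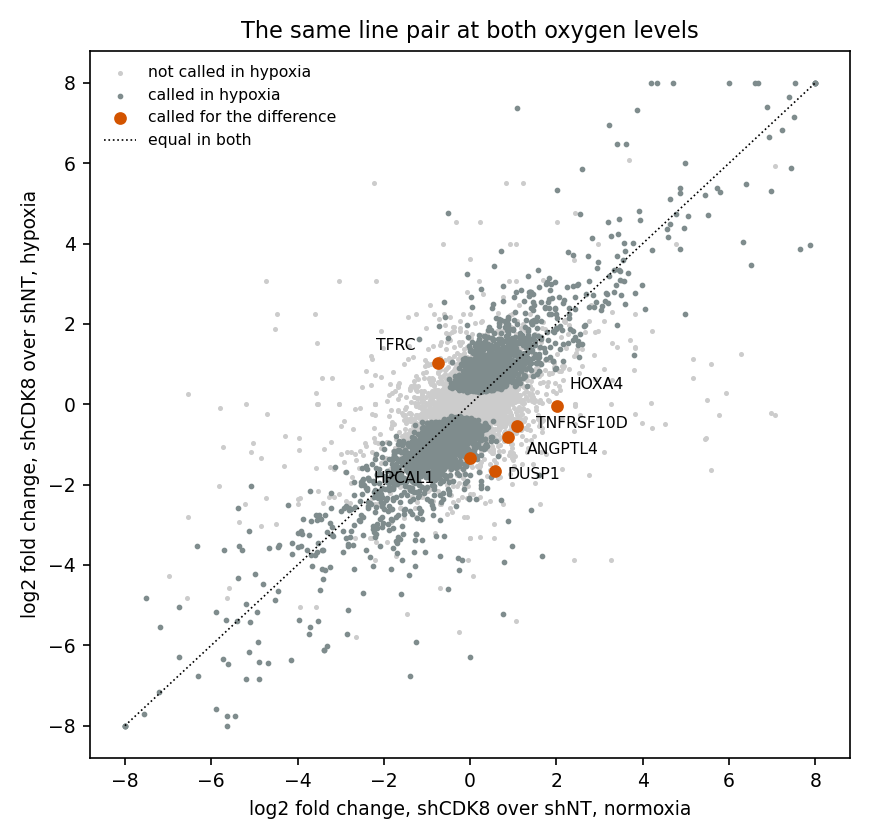
Log2 fold change of shCDK8 over shNT in normoxia (horizontal axis) and hypoxia (vertical axis) for 15520 genes, with values beyond 8 in size drawn at 8, genes called in hypoxia in dark grey, the 6 called for the difference in orange and a dotted line where both are equal. Of 1447 genes called at 2-fold or more in hypoxia, 1391 have the same sign in normoxia, and DUSP1, ANGPTL4, TNFRSF10D, HOXA4 and HPCAL1 lie below it while TFRC lies above.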

How the data were processed

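Poly(A) RNA libraries were sequenced on an Ion Torrent Proton, per the labels' protocols. The deposited table holds raw read counts per gene symbol in 16 columns, without scaling by the authors. GSNAP 2013-10-28, HTSeq 0.5.4p5 and DESeq 1.14.0, with the build hg19 (GRCh37), are listed in the submitters' processing notes. Annotation, strand setting and read filters are not given in the sources used here. Column names give the group but not the GEO replicate number. Totals ran from 26620086 to 39401494. Replicates differed beyond counting error, and intervals and floors cover counting error only.

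From these counts, 15520 of 23669 genes (65.6%) passed edgeR's filter by group (10 counts, 15 in total) and were fitted in edgeR 4.0.16 (R 4.3.3) with TMM factors, 1 coefficient per group over 16 libraries and 8 residual degrees of freedom, by the quasi-likelihood test. The step was run on counts simulated from its own fitted means and dispersions, which cannot check how real replicates vary. Alternatives were DESeq2 1.42.0, RLE factors, library totals, other filters, only the groups compared, glmTreat at 1.5-fold, a replicate block and leaving out each library. The named genes were the kinase module, the 12-gene panel, the 12 highest and 12 lowest called genes at 5 CPM or more with groups apart, up to 6 members of each list by adjusted p, and up to 6 genes each way called for the difference. Members and lists were chosen with earlier results of these data known, and the response classes and the chromosome 19 group were added during the work. Coordinates came from GENCODE 44 lifted to GRCh37. Some members of the lists are counted but not reported by name here.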

Additional observations from a re-analysis of the deposited data

Results flagged for a closer look

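The effect of shCDK8 differed between hypoxia and normoxia for 6 genes by edgeR's test of the difference itself, adjusted over all genes. The log2 differences, hypoxia minus normoxia, were -2.23 for DUSP1, -2.06 for HOXA4, -1.70 for ANGPTL4, -1.64 for TNFRSF10D, -1.33 for HPCAL1 and 1.77 for TFRC. DUSP1 kept its call in all 16 other analyses (adjusted p of at most 0.0295). TFRC lost it without shCDK8 hypoxia library A (adjusted p of 0.0544) and against a 1.5-fold threshold (0.053), and HPCAL1 without shNT normoxia library A (0.106), without shCDK8 hypoxia library A (0.149) and against that threshold (0.255). ANGPTL4, HOXA4 and TNFRSF10D each lost it when any of several libraries was left out, with adjusted p up to 0.254, and against the 1.5-fold threshold (0.371, 0.23 and 0.371). With only the groups compared, ANGPTL4 and HOXA4 were at 0.051 and 0.0532, and with library totals TNFRSF10D was at 0.0515.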

How the results depend on the processing

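The count of genes called in hypoxia (4325) was within 1.5 times of this under 7 alternatives and without shNT library A, and it was 1019 against a 1.5-fold threshold. Leaving out 1 library gave 2209 to 3897. The normoxia count (2028) was 632 against 1.5-fold, 3264 with the replicate block, and 1074 to 1827 without 1 library. The count for the difference (6) was 225 with DESeq2, 384 with no filter, 15 with a mean of at least 5 CPM, 1 against 1.5-fold and 532 with the replicate block, and 1 to 9 without 1 library. The labels do not say that the series of library numbers pair samples. Deviations of libraries with the same letter correlated with r of 0.0912 to 0.552 between groups (0.408 between the 2 compared), and the replicate block raised the hypoxia count to 6038. CDK8 was called in every alternative. Of 214 named genes, 184 were called, 49 of which lost the call without some library and 5 under another alternative, leaving aside the 1.5-fold threshold, and none changed direction while called. The median log2 fold change over all genes was 0.00 with RLE factors and 0.02 with library totals. With 2 libraries per group and 8 residual degrees of freedom, small differences are not resolved, and genes near 3 counts carry wide errors.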

Other observations

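Most calls among zinc finger genes on chromosome 19 were lower in shCDK8. Of 177 tested genes with a ZNF symbol on that chromosome, 62 fell (35.0%) and 5 rose in hypoxia, with a median log2 fold change of -0.44. Among 895 other genes of chromosome 19, 154 fell (17.2%), with a median of 0.00, and among 237 ZNF genes elsewhere 29 fell (12.2%), with a median of -0.04. In normoxia 46 of the 177 fell and 1 rose, with a median of -0.40. The hypoxia count was 40 without shNT library B, 41 without shCDK8 library B, 42 without shCDK8 library A and 56 without shNT library A, and those that rose were between 2 (without shNT library B) and 7 (without shNT library A). This group was chosen after ZNF614 and ZNF136 were seen among the lowest genes, so no test is given.

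Redox genes of the NRF2 pathway changed in both directions, with 4 of 26 higher and 5 lower, where 14.4% of all genes rose and 13.4% fell. HMOX1, which breaks down haem, had 52.6 and 57.8 CPM in shCDK8, against 18.5 and 16.7 CPM in shNT (1.65 ± 0.15, adjusted p = 1.04e-06), and GCLM, a subunit of the enzyme that starts glutathione synthesis, rose by 0.86 ± 0.14. The number that fell was 3 without any 1 of shCDK8 library A, shCDK8 library B or shNT library B. NQO1, a quinone reductase, had 281 and 281 CPM in shCDK8, against 509 and 539.7 CPM in shNT (-0.90 ± 0.13, adjusted p = 8.87e-05), and FTL, the ferritin light chain, had 699.5 and 862 CPM in shCDK8, against 1415 and 1782 CPM in shNT (-1.03 ± 0.18, adjusted p = 0.000674).

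Of 23 JmjC oxygenases, 4 rose (17.4%, against 14.4% of all genes) and 0 fell in edgeR's test (4 at an unadjusted p under 0.05, 1 in DESeq2). Those that rose were 2 without shCDK8 library A or shNT library B, and 3 fell without shNT library A. MINA, a ribosomal oxygenase, had 40.5 and 36.3 CPM in shCDK8, against 22.5 and 23.4 CPM in shNT (0.74 ± 0.12, adjusted p = 0.000319). C14orf169, another ribosomal oxygenase, had 3.94 and 3.92 CPM in shCDK8, against 1.48 and 1.92 CPM in shNT (1.21 ± 0.21, adjusted p = 0.000649). Exons of MINA overlap those of CRYBG3. In glycogen metabolism, the primer protein gene GYG1 (32.7 and 32.8 CPM in shCDK8, against 16.2 and 15.4 CPM in shNT, 1.05 ± 0.12) and the phosphorylase PYGB (273 and 253 CPM in shCDK8, against 132 and 82.7 CPM in shNT, 1.29 ± 0.20) rose, and PPP1R3B, which targets a phosphatase to glycogen, fell (64.8 and 85.6 CPM in shCDK8, against 184 and 230.5 CPM in shNT, -1.46 ± 0.19). Exons of GYG1 overlap those of HLTF.

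The remaining lists gave few calls or calls both ways, and are to be read against the 14.4% of all genes that rose and the 13.4% that fell. Of 29 genes of the citrate cycle and pyruvate dehydrogenase, 2 rose and 5 fell. Of those, 1 fell without shCDK8 library A or shNT library B and 3 fell without shCDK8 library B, and 1 rose without any 1 library other than shCDK8 library A. Of 44 nuclear genes of oxidative phosphorylation, 4 rose and 3 fell. There 0 fell without shCDK8 library A and 1 without shNT library B, and 2 rose without any 1 library other than shNT library A. Of 31 ATF4 targets, 6 rose and 6 fell, and 2 rose without shCDK8 library A and 3 without shNT library B. Of 23 genes of the unfolded protein response, 5 rose and 1 fell. In that list 2 rose without shNT library B, 0 fell without shCDK8 library A or shNT library B, and 2 fell without shNT library A. Of 21 mitophagy and autophagy genes, 1 rose and 4 fell, and 2 fell without shCDK8 library A or shNT library B. Of 18 YAP targets, 2 rose and 4 fell, and 1 rose without shCDK8 library B or shNT library B.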
